A study of Homo sapiens with 4 samples.

Results

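Hypoxia was set against normoxia in parental cells of A2058, an established human melanoma cell line. The comparison rests on 2 of the 4 arrays of the series, the one labelled as parental cells in hypoxia and the one labelled as parental cells in normoxia, and covers all genes measured on them. The other 2 arrays hold a cancer stem-like derivative in the same conditions, obtained by keeping parental cells in 100 uM carmustine, an alkylating drug, for 6 months. The parental cells had no such selection, and every culture was kept in DMEM with 10% serum under 5% CO2. The labels name hypoxia and normoxia only; an oxygen level and a length of exposure were not found in the labels. With 1 array in each group there is no spread between replicates, so no difference was tested and the values describe this pair of cultures alone.

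Cells answer low oxygen largely through the hypoxia-inducible factors, called HIF, each a dimer of an oxygen-labile alpha subunit and a stable beta subunit. In oxygen, prolyl hydroxylases mark the alpha subunit for destruction by the VHL ubiquitin ligase, so its control lies mostly in the protein and not in its messenger RNA. Without oxygen the dimer binds DNA at the core motif ACGTG or GCGTG. It raises genes of glucose uptake, glycolysis, mitochondrial turnover, blood vessel growth and collagen modification. Skin is itself mildly hypoxic, and HIF activity has been described in melanoma.

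RNA was read on Illumina bead arrays, which report for each probe a mean bead signal and a detection p-value against negative controls. Detection was set at a p-value under 0.01, which held for 16586 of 47171 probes in normoxia and 16670 in hypoxia. Those probes covered 10002 and 10104 genes, and the median signal of detected probes was 295.1 and 301.0. Where a gene had several detected probes, the log2 folds of its probes had an SD of 0.20 over 2406 genes. That SD is the only error available, and it does not hold what a repeat of the culture or of the array would add. The melanoma identity of the cells was seen on both arrays: PMEL, TYR, MITF, SOX10, MLANA and TYRP1 were detected, while the pigment cell factor PAX3 was not. Of the markers of other cells, 2 of 8 fibroblast genes, 1 of 7 keratinocyte genes, 2 of 7 leukocyte genes and 1 of 6 endothelial genes were detected on at least 1 array, with log2 folds between -0.27 and 0.28. Collagen genes COL1A1 and COL3A1, the keratins KRT5 and KRT14, the leukocyte gene PTPRC and the endothelial gene PECAM1 were below detection on both.

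Hypoxic parental cells differed from normoxic ones by a short set of higher genes and a shorter set of lower ones. Of 10425 genes detected on at least 1 of the arrays, 40 were at least 2-fold higher in hypoxia, or 0.384%, and 8 were at least 2-fold lower, or 0.0767%. At 1.5-fold the counts were 191 higher, or 1.83%, and 109 lower, or 1.05%. Only the higher side held large differences: 12 genes were past 3-fold, 4 of them past 4-fold, and none was past 4-fold lower. Most genes stood close to no difference. Over all 10425 genes the median log2 fold was 0.00, the SD was 0.26 and 49.6% of genes were above 0. Of the 40 higher genes, 21 belonged to a list of HIF targets or to a list of glucose uptake and glycolysis, and 13 belonged to none of 43 gene lists. Of the 8 lower genes, 4 belonged to a list, each to a different one. All lists together held 692 of the 10425 genes. The HIF target list held 36 detected genes and the list of glucose uptake and glycolysis 26, with PFKFB3 on both. Members and lists were chosen with earlier results of these data known, so these counts describe and were not tested.

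**Figure D1:**
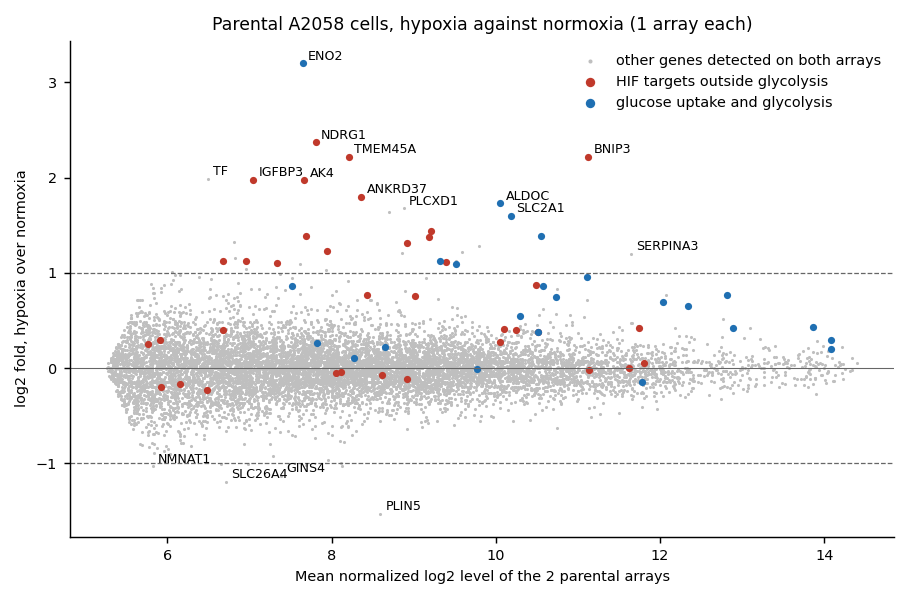
Log2 fold of hypoxia over normoxia (vertical axis) against the mean normalized log2 level of the parental arrays (horizontal axis) for genes detected on both, 1 point a gene, with dashed lines at 2-fold. HIF targets (red) and glycolysis genes (blue) make up most of the points above the upper line at middle and bright levels. At dim levels most of those points belong to neither list, among them TF, APOLD1, CCNG2, ARLN and CUBN. The points below the lower line are grey and lie at dim to middle levels.

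The higher genes were spread over all levels of signal. Among genes detected on both arrays, split by level into 3 classes of 3213 genes, 8 of the dim class, 14 of the middle class and 13 of the bright class were at least 2-fold higher. The dim and the middle class each held 4 lower genes and the bright class held 0. The SD between probes of a gene was 0.26 in the dim class and 0.18 in the bright class, so a difference of a given size stands on less error in a bright gene.

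The genes that sense oxygen were mostly level, with 1 exception. EGLN1, which encodes the main HIF prolyl hydroxylase and is itself a HIF target, gave a signal of 236 in normoxia and 413 in hypoxia, which made it 2.13-fold higher. It was the sole member past 1.5-fold of the 17 detected members of the list of HIF subunits and oxygen sensing, whose median log2 fold was 0.05. HIF1A, the alpha subunit with the broadest targets, read 655 in normoxia and 630 in hypoxia, a log2 fold of -0.09, and 2 further probes of it gave 0.10 and 0.12. EPAS1, the HIF-2 alpha subunit, read 162 and 165. VHL, which recognises the hydroxylated alpha subunit, read 892 and 883, a log2 fold of -0.03, and 2 further probes of it gave 0.15 and 0.25. None of these probes was past 1.5-fold. ARNT2, a beta subunit, stood at a log2 fold of 0.45, and the hydroxylase genes EGLN2 and HIF1AN, which encodes the asparaginyl hydroxylase, stood at 0.05 and 0.14. EGLN3, another prolyl hydroxylase and a frequent HIF target, was below detection on both arrays.

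HIF targets outside glycolysis formed the larger block of higher genes. Of 58 genes on that list 53 had a probe used here and 36 were detected, of which 15 were at least 2-fold higher, 0 lower and 28 above 0. Their median log2 fold was 0.59, against 0.00 over all genes. Among all genes 0.384% were at least 2-fold higher, 0.0767% at least 2-fold lower and 49.6% above 0. The list was made of known hypoxia genes, so its count describes this culture and is not an independent sign of direction. The detected members that did not reach 1.5-fold number 18, among them MXI1, a MYC antagonist, at -0.04, the iron receptor gene TFRC at 0.00, and ANGPTL4, a secreted inhibitor of lipoprotein lipase, at -0.17.

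Of 6 detected mitochondrial members of the list 3 were at least 2-fold higher, and LONP1, HIGD1A and FUNDC1 stood at log2 folds of 0.27, -0.02 and -0.07. BNIP3, an outer mitochondrial membrane receptor that marks mitochondria for removal by autophagy, read 1225 in normoxia and 5288 in hypoxia and was 4.65-fold higher. Its relative BNIP3L, also a mitophagy receptor, read 485 and 1132 and was 2.60-fold higher, with a second probe at a log2 fold of 1.16 against 1.38. AK4, a mitochondrial matrix adenylate kinase, read 202 and 539 and was 3.93-fold higher. Its other probes detected on both arrays gave log2 folds of 0.78 and 1.68, below the 1.97 of the brightest probe but all past 1.5-fold. The machinery that these receptors serve did not follow them in size: of 19 detected genes of the core autophagy machinery, 0 were past 1.5-fold in either direction and their median log2 fold was -0.08. The 8 detected autophagy receptors, BNIP3 and BNIP3L among them, had a median of -0.02. CALCOCO2, a receptor detected in normoxia only, read 156 and 136, both dim, with a bound of 1.57-fold lower. Across alternative ways of processing that bound shrank to a log2 fold of -0.22. PINK1, which acts in another route to mitophagy, stood at -0.10.

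Secreted members came next. IGFBP3, which binds insulin-like growth factors in the extracellular space, read 163 and 387 and was 3.94-fold higher, and a second probe, detected in hypoxia only, read 128 and 238. IGFBP5, a binding protein of the same family, read 484 and 1167 and was 2.71-fold higher, with 1.43 from its second probe against 1.44 on the log2 scale. The other 4 detected members of that family of 7, IGFBP7, IGFBP6, IGFBP2 and IGFBP1, had log2 folds from -0.14 to 0.43, so the high values belonged to IGFBP3 and IGFBP5. TGFA, a ligand of the epidermal growth factor receptor, read 182 and 300, a 2.19-fold difference, and its second probe gave 1.05 against 1.13. VEGFA, the main growth factor of blood vessels, read 166 and 263, both dim, and was 2.20-fold higher. A further VEGFA probe read 115 and 137 and was detected in hypoxia only. Of the 15 detected angiogenic ligands, receptors and inhibitors, VEGFA was the one member past 1.5-fold, the list's median was -0.04, and the receptor genes KDR and FLT1 of endothelial cells were not detected.

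Regulators of transcription and signalling had 4 members past 2-fold and 3 more past 1.5-fold among 10 detected. NDRG1, a cytoplasmic stress protein, read 197 and 656 and was 5.17-fold higher. ANKRD37, an ankyrin repeat protein, read 282 and 772 and was 3.48-fold higher. INSIG2, an endoplasmic reticulum protein that holds back activation of the sterol regulators, read 229 and 466 and was 2.61-fold higher. These 3 genes were dim to moderate in normoxia and clearly above background in hypoxia. KDM3A, a histone H3 lysine 9 demethylase, read 210 and 357 and was 2.14-fold higher. The members between 1.5-fold and 2-fold were DDIT4, an inhibitor of the mTORC1 kinase complex, at 1.82-fold, ERO1A, an oxidase of the endoplasmic reticulum, at 1.70-fold, and the zinc finger gene ZNF395 at a log2 fold of 0.76. BHLHE40, a repressor of transcription, reached a log2 fold of 0.41 and did not pass 1.5-fold.

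Among membrane and matrix proteins, TMEM45A, a transmembrane protein gene, read 238 in normoxia and 797 in hypoxia and was 4.67-fold higher. Its second probe read 212 and 703 and gave a log2 fold of 2.30 against 2.22, so separate probes placed it within the SD between probes. FAM162A, a mitochondria-associated protein that HIF induces, read 265 and 510 and was 2.34-fold higher. P4HA1 and P4HA2, described with the collagen enzymes, were the remaining members of this class past 2-fold. The creatine transporter gene SLC6A8 at 0.40, PLOD2 at 0.42 and EFNA1 at -0.05 did not pass 1.5-fold.

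The RefSeq promoters of these genes were read for the HIF motif core, ACGTG or GCGTG. A window runs from 250 bases before the gene's first listed start to 50 bases after it, is 300 bases long, comes from assembly GRCh38.p14 and is written 5′ to 3′ along the gene's strand. Capitals mark ACGTG or, for a copy on the opposite strand, CACGT, and the palindrome CACGTG holds both in overlap. Copies of GCGTG are not marked. The 6 genes shown first are among the highest with an entry in the table and PLIN5 is the lowest gene. They were picked with their values in view. TF and IGFBP3 also have an entry and stood above AK4, but are not shown. Their windows held 1 copy and 0 copies of ACGTG. They lie at chr12:6914330-6914629 on the plus strand for ENO2, chr10:131981874-131982173 on the minus strand for BNIP3, chr3:100492369-100492668 on the plus strand for TMEM45A, chr1:65147302-65147601 on the plus strand for AK4, chr4:185396591-185396890 on the plus strand for ANKRD37, chr17:28576846-28577145 on the minus strand for ALDOC and chr19:4535175-4535474 on the minus strand for PLIN5.
ENO2: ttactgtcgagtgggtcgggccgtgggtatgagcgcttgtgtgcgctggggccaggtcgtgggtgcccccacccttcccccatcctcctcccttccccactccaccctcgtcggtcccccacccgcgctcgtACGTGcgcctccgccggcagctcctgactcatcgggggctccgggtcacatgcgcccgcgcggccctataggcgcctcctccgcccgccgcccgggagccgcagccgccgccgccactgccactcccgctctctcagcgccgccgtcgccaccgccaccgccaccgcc
BNIP3: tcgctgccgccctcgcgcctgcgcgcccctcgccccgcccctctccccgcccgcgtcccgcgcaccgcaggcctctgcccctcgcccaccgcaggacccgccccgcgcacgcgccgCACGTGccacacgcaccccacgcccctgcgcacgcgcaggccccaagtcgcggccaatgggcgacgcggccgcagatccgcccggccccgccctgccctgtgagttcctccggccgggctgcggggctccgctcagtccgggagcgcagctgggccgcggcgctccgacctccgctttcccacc
TMEM45A: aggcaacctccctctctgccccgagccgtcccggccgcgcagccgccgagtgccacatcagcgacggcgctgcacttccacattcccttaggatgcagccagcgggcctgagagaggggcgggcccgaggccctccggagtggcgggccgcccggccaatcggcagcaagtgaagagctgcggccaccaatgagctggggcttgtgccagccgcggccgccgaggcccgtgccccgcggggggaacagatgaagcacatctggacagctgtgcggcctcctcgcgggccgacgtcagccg
AK4: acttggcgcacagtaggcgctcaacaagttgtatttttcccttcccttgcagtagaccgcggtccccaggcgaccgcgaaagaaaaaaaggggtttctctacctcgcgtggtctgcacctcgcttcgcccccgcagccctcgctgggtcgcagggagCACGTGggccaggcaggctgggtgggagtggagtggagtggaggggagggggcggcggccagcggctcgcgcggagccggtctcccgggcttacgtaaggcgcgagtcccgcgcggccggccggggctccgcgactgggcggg
ANKRD37: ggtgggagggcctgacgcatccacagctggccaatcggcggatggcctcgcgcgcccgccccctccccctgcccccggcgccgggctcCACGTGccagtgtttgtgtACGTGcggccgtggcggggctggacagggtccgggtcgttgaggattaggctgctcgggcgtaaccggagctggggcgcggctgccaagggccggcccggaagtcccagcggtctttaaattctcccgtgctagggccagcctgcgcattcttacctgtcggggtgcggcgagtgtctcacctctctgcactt
ALDOC: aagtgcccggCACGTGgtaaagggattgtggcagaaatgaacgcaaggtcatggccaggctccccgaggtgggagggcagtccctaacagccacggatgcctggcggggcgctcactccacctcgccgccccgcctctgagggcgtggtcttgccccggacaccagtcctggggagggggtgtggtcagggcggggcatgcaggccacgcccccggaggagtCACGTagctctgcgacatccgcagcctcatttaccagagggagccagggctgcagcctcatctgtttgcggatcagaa
PLIN5: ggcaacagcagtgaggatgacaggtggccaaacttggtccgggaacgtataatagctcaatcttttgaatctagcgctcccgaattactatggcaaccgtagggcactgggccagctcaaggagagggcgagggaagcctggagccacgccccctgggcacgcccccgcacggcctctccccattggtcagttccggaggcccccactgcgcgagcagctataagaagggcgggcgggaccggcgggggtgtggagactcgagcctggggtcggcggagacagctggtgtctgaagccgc

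ANKRD37 held the palindrome at position -162 from the start and a single copy of ACGTG at -143. ALDOC held the palindrome at -240 and a single copy at -28. BNIP3 had the palindrome at -134, AK4 had it at -93, and ENO2 had 1 copy at -118. TMEM45A and PLIN5 had no ACGTG in this window. Of the 40 genes at least 2-fold higher, 35 had a promoter in the table, and 17 of those, or 48.6%, held the ACGTG form. The share was 28.0% over all 8471 tested genes with a promoter, 27.1% among 118 genes between 1.5-fold and 2-fold higher, 35.5% among 76 genes between 1.5-fold and 2-fold lower, and 0 of 6 among genes at least 2-fold lower. Over all 27305 promoters of the table it was 21.6%. When any listed start of a gene was allowed, the shares were 54.3% for the 35 higher genes and 33.7% for all tested genes. The other form of the core, GCGTG, was held by 45.7% of the higher genes and 51.7% of all tested genes. At least 1 of the 2 forms was held by 68.6% of the higher genes and 64.6% of all tested genes, which is close. The higher share in the higher genes was thus seen for ACGTG and not for GCGTG. The median share of G or C in the window was 68.3% in the higher genes and 65.0% in all tested genes. These matches describe letters in a window and no difference between shares was tested.

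Glucose uptake and glycolysis was the other block of higher genes, and its members stood above 0 at nearly every step. Of 31 genes on the list 30 had a probe used here and 26 were detected, of which 6 were at least 2-fold higher, 13 at least 1.5-fold higher and 24 above 0, with a median log2 fold of 0.60. None was 1.5-fold lower. Among all genes 0.384% were at least 2-fold higher, 1.83% at least 1.5-fold higher, 1.05% at least 1.5-fold lower and 49.6% above 0. This list too was chosen with earlier results known, and its counts were not tested. Entry of glucose was covered by SLC2A1, which encodes GLUT1 and read 822 and 2290, a 3.04-fold difference, and by SLC2A3, which encodes GLUT3 and read 641 and 1269, a 2.13-fold difference. SLC2A14 is a near-identical copy of SLC2A3, so which copy the SLC2A3 probe measured is uncertain; the SLC2A14 probe itself read 119 and 144 and was detected in hypoxia only.

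The isozymes of single steps differed in size. Hexokinase commits glucose to the cell: HK2, the inducible form, read 567 and 1137 and was 2.17-fold higher, but a second HK2 probe stood at 0.31 against 1.12 on the log2 scale, so the size for HK2 depends on the probe. HK1, the constitutive form, read 3680 and 5954, a log2 fold of 0.70. At the phosphofructokinase step, which sets the pace of the pathway, PFKL and PFKP both stood at 0.86, whereas PFKM read 1047 and 1046, with a log2 fold of -0.01. At the aldolase step, ALDOC read 730 and 2201 and was 3.33-fold higher, whereas ALDOA read 4566 and 7087, a log2 fold of 0.65. At the enolase step, ENO2, the form known from neurons, read 163 in normoxia and 764 in hypoxia and was 9.17-fold higher, the highest fold of all genes detected on both arrays. ENO1, the form of most tissues, read 16059 and 19635, a log2 fold of 0.30, and ENO3, the muscle form, gave 0.22. At the aldolase and enolase steps 1 form thus had a fold well above that of its partners.

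None of the remaining steps of the pathway passed 2-fold. PGAM1, phosphoglycerate mutase, read 1811 and 3490, a log2 fold of 0.96. PGK1, phosphoglycerate kinase, read 6024 and 10296, a log2 fold of 0.77, and its second probe gave 0.84. GPI, the isomerase after hexokinase, gave 0.75 and TPI1, triose phosphate isomerase, gave 0.42. Of these 4, PGAM1, PGK1 and GPI were past 1.5-fold. PKM, pyruvate kinase, stood at 0.55 and GAPDH at 0.20. LDHA, which turns pyruvate into lactate, read 13788 and 17753, a log2 fold of 0.43, with further probes at 0.54 and 0.74, while LDHB stood at -0.15 and LDHC at 0.11. Among regulators of flux, PFKFB4, a bifunctional enzyme that makes the activator of phosphofructokinase, read 1097 and 2723 and was 2.63-fold higher. PFKFB3, of the same family, stood at 0.38, and TIGAR, which removes that activator, at 0.26.

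**Figure D2:**
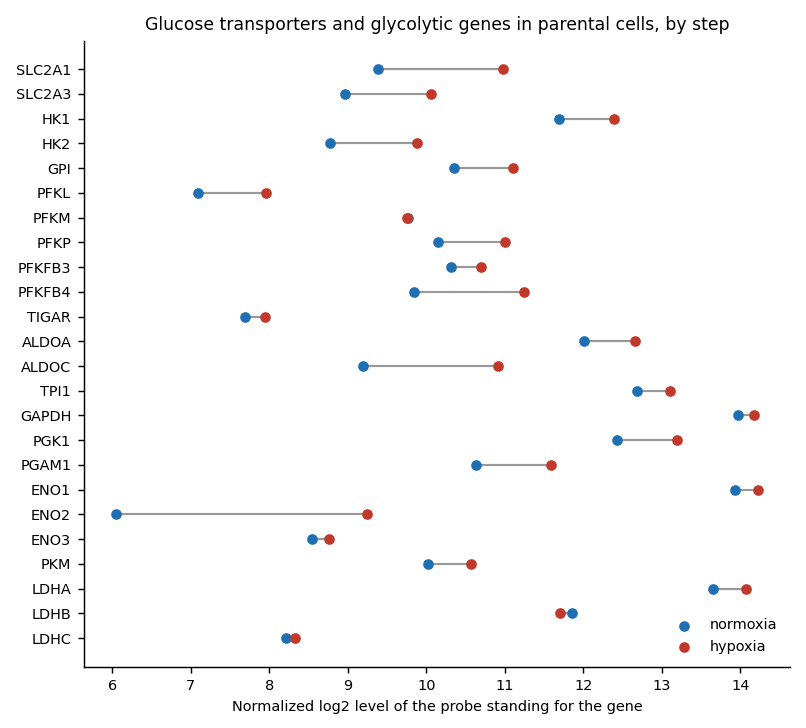
Normalized log2 level (horizontal axis) of the probe standing for each glucose transporter and glycolytic gene detected on both parental arrays, in normoxia (blue) and hypoxia (red), 1 array each, ordered by step of the pathway. Hypoxia lies to the right for all but PFKM and LDHB, by the most for ENO2 and by little for GAPDH and ENO1; distances within a row are folds, and levels of different probes should not be set against each other.

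Routes that branch from glycolysis moved in single genes. GBE1, the glycogen branching enzyme, read 645 and 1381 and was 2.34-fold higher, and the other 7 detected genes of glycogen metabolism lay between -0.06 and 0.37. In the pentose phosphate pathway, 0 of 7 genes passed 1.5-fold and the median was -0.07. PDK3, a kinase that switches off pyruvate dehydrogenase and so holds back entry of pyruvate into the TCA cycle, read 423 and 869. It was 2.32-fold higher, with a second probe at 0.70 against 1.21. PDK1, the kinase most often named in hypoxia, was below detection on both arrays, and PDK4 stood at 0.06. The pyruvate carrier gene MPC1 read 1280 and 989, a log2 fold of -0.40, and its second probe gave -0.74, while MPC2 gave -0.01.

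Genes of mitochondrial respiration showed no member past 1.5-fold. Of 19 detected genes of the TCA cycle 13 were above 0 and the median log2 fold was 0.02. Of 68 detected genes of oxidative phosphorylation 47 were below 0 and the median was -0.05, with values from -0.49 for NDUFA9, a complex I subunit, to 0.48 for NDUFB4, of the same complex, whose probe was detected in hypoxia only. Complex IV had 9 of 10 members below 0, at a median of -0.06. Over all genes 49.6% were above 0 and 50.2% below. The medians of these lists are small, and their error was not measured. The SD between probes of a gene describes single probes and not a median over many genes.

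Oxygen-dependent enzymes of collagen assembly and of chromatin were split. P4HA2 and P4HA1, catalytic subunits of the collagen prolyl 4-hydroxylase, read 425 and 924, and 589 and 1183, and were 2.47-fold and 2.16-fold higher. A second P4HA2 probe gave a log2 fold of 1.24 against 1.31. Their shared beta subunit gene P4HB stood at 0.27. PLOD1, a lysyl hydroxylase, read 3676 and 6168 and was 1.71-fold higher, and PLOD2 stood at 0.42 with further probes at 0.59 and 0.89. The 4 prolyl 3-hydroxylase genes lay between -0.14 and 0.04, and LOX, the crosslinking lysyl oxidase, was not detected. JmjC histone demethylases need oxygen for their reaction. The list of JmjC proteins, not all of them histone demethylases, held 16 detected genes with a median of -0.04. Among them KDM3A was past 2-fold, and KDM4B followed at 1.75-fold with dim signals of 149 and 199.

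Lists of iron and lipid genes each held 1 member far from the rest. TF, which encodes the iron carrier transferrin, read 140 in normoxia, just above background, and 293 in hypoxia, and was 3.97-fold higher, while the other 8 detected genes of iron handling lay between -0.37 and 0.34. Among lipid droplet and lipid uptake genes PLIN5 stood apart. PLIN5, which coats lipid droplets and ties them to mitochondria, read 814 in normoxia and 347 in hypoxia and was 2.89-fold lower, the lowest fold of all genes. Other droplet coat genes did not share this direction, with HILPDA, a HIF-induced inhibitor of fat breakdown, at 1.53-fold higher, PLIN2 at a log2 fold of 0.32 and PLIN3 at -0.01. VLDLR, a lipoprotein receptor, was 1.61-fold higher. Beside INSIG2, the 26 other detected genes of cholesterol and fatty acid synthesis had no member past 1.5-fold. Among them, 10 of the 15 cholesterol enzymes were below 0, against 50.2% of all genes. The lowest was LSS, lanosterol synthase, at -0.55.

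Stress pathways showed few genes past the thresholds. Of 29 detected genes of the unfolded protein and integrated stress responses 4 were at least 1.5-fold higher, namely DDIT4, NUPR1 at 1.72-fold, ERO1A and VLDLR, and 1 was lower. That was ATF5, a transcription factor of the integrated stress response, which read 529 and 313 and was 2.04-fold lower. ATF4, which stands upstream of it, read 6613 and 6919, and the chaperone gene HSPA5 gave 337 and 352. Amino acid and one-carbon synthesis genes had 17 of 21 members above 0 and a median of 0.25, with SLC1A4, a neutral amino acid transporter, at 1.71-fold and ASNS, asparagine synthetase, at a log2 fold of 0.57. Of the heat shock chaperones 15 of 20 were below 0, with none past 1.5-fold and a median of -0.14, whose error was not measured. Over all genes 49.6% were above 0 and 50.2% below. HSPA1B had the lowest value there, -0.51, but HSPA1A and HSPA1B are near-identical copies and the HSPA1A probe gave -0.07. Of the inflammatory list 3 of 14 were at least 1.5-fold higher, IL1B at dim signals of 135 and 178, CCL20 and PTGS2, and a second PTGS2 probe gave -0.18. Over all genes 1.83% were at least 1.5-fold higher and 1.05% at least 1.5-fold lower, and no list was tested against these shares.

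Cell division genes were close to level apart from 1 replication gene and 1 cyclin. Of 40 detected genes of DNA replication 28 were below 0, against 50.2% of all genes, with a median of -0.08, whose error was not measured. GINS4, a subunit of the replicative helicase, read 360 and 220 and was 2.19-fold lower, whereas its partners GINS1, GINS2 and GINS3 stood between -0.20 and -0.07. None of 30 mitosis genes passed 1.5-fold, and the proliferation marker MKI67 stood at -0.23 with dim signals of 175 and 168. CCNG2, a cyclin linked to arrest, read 173 and 282 and was 2.24-fold higher, but its other probes gave log2 folds of 0.22 and 0.40. The p53 target gene CDKN1A stood at 0.49, and GDF15, a secreted stress factor, was 1.78-fold higher.

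Pigment cell identity differed little. None of 17 detected melanocyte and pigment genes passed 1.5-fold, and the median log2 fold was 0.05. PMEL, the melanosome fibril protein, read 7676 and 8574, TYR, which makes the melanin precursor, 2788 and 2854, and SOX10, a neural crest factor, 2409 and 2518. MITF, the master factor of pigment cells, read 919 and 1200, a log2 fold of 0.40. In such bulk RNA, fewer cells of a type and less RNA per cell cannot be told apart. Of 13 detected stem cell associated genes PROM1, which encodes the surface marker CD133, read 632 and 1281 and was 2.19-fold higher, KDM5B stood at 0.50, and the median was 0.01. SNAI2, a neural crest and transition factor, read 1062 and 739 and was 1.52-fold lower, with a second probe at -0.44.

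**Figure D3:**
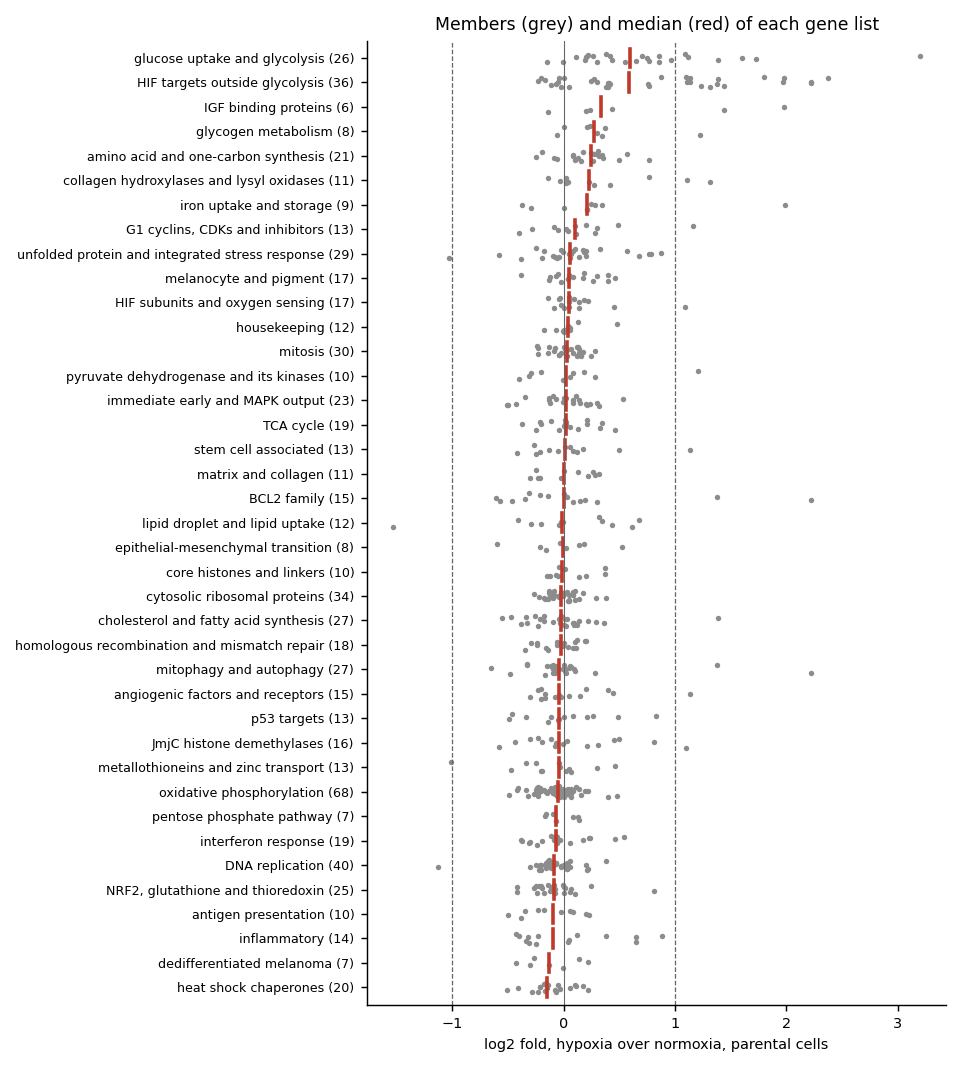
Log2 fold of hypoxia over normoxia in parental cells (horizontal axis) for each gene list with at least 3 detected members, 1 grey point a gene, red bars for medians, number of detected members in brackets and dashed lines at 2-fold. The glycolysis and HIF target lists have medians of 0.60 and 0.59, and the other medians lie between -0.14 and 0.33.

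The 13 higher genes that belonged to none of the lists were led by PLCXD1 and TXNIP. PLCXD1, a protein with a phospholipase C domain, read 378 and 1015 and was 3.20-fold higher. TXNIP, which binds thioredoxin and restrains glucose uptake, read 347 and 894 and was 3.12-fold higher. SERPINA3, the secreted protease inhibitor antichymotrypsin, read 2402 and 5312 and was 2.29-fold higher. All 3 were well above background on both arrays. WDR54, a WD repeat protein, read 716 and 1600 and was 2.44-fold higher. APOLD1, known from endothelial cells, read 168 and 292 and was 2.50-fold higher, while the endothelial marker genes PECAM1, CDH5, KDR, TEK and CLDN5 were not detected and VWF was detected in hypoxia only, at a signal of 146. FCGR2A, an Fc receptor of myeloid cells, read 275 and 480 and was 2.05-fold higher, with a second probe at 1.02 against 1.03, and the leukocyte genes PTPRC and TYROBP were not detected. ARLN was 2.06-fold higher. CUBN, a receptor for the vitamin B12 carrier, read 141 and 200, both dim, and was 2.02-fold higher, the closest to the threshold. Across alternative ways of processing its log2 fold fell to 0.41. The last 5 were detected in hypoxia alone, and their folds are bounds set by the lowest detected level in normoxia. SLAMF9 was at least 2.61-fold higher, PYGO2, a coactivator of Wnt signalling, at least 2.27-fold, BEND5 at least 2.16-fold, SERPINA5, a protease inhibitor, at least 2.13-fold, and ZBTB6 at least 2.05-fold. These bounds depend on the background correction and its offset: without background correction, in the authors' values and with an offset of 50 none of the 5 reached 2-fold, and their lowest log2 folds were between 0.38 and 0.55.

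The lower genes formed no common group by function. Beside PLIN5, GINS4 and ATF5, SLC26A4, the anion exchanger pendrin, read 262 and 171 and was 2.28-fold lower. NMNAT1, which makes NAD in the nucleus, read 178 and 138 and was 2.04-fold lower, and GPKOW, a protein of the spliceosome, read 411 and 256 and was 2.02-fold lower. SLC30A1, which exports zinc from the cell, read 245 and 173, a 2.02-fold difference, but a further probe read 210 and 181, a log2 fold of -0.50. KAZN, a protein of cell junctions, read 286 and 194, also 2.02-fold lower, while a second probe near background gave -0.14. Neither of the lower genes with a second probe detected on both arrays had that probe past 1.5-fold. By contrast, 10 of the higher genes had such probes; all of these probes were above 0, and in 8 of the 10 genes all were past 1.5-fold, the exceptions being HK2 and CCNG2. OLFML2A, at signals of 515 and 312, fell just short of the threshold, and HINT3, NAPG and UCK1 came next, with log2 folds of -0.96, -0.92 and -0.90, and a second HINT3 probe gave -0.18. Among genes detected in normoxia alone none reached 2-fold lower, and the largest bounds were 1.87-fold for the cytokine subunit gene IL12A and 1.71-fold for RSPO2, a Wnt agonist. These bounds too depend on the processing, and their weakest log2 folds were -0.32 and -0.27.

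The size of a fold depended on how background was handled, because the higher genes were often dim in normoxia. Without background correction 19 of the 40 higher genes and 1 of the 8 lower genes stayed past 2-fold, and 20 and 1 did so in the authors' normalized values. Across all 8 alternative settings 18 higher genes stayed past 2-fold and 34 past 1.5-fold. The 18 were ENO2, NDRG1, BNIP3, TMEM45A, IGFBP3, AK4, ANKRD37, ALDOC, PLCXD1, TXNIP, SLC2A1, IGFBP5, PFKFB4, BNIP3L, P4HA2, WDR54, GBE1 and SERPINA3. Of the lower genes PLIN5 alone stayed past 2-fold in all of them, with log2 folds from -1.56 to -1.23. ENO2 ranged from 2.13 to 3.25, TF from 0.98 to 2.07, IGFBP3 from 1.15 to 2.03 and NDRG1 from 1.65 to 2.41. BNIP3, bright on both arrays, ranged only from 2.12 to 2.22. NMNAT1 was the least steady of the lower genes, from -1.08 to -0.38.

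**Figure D4:**
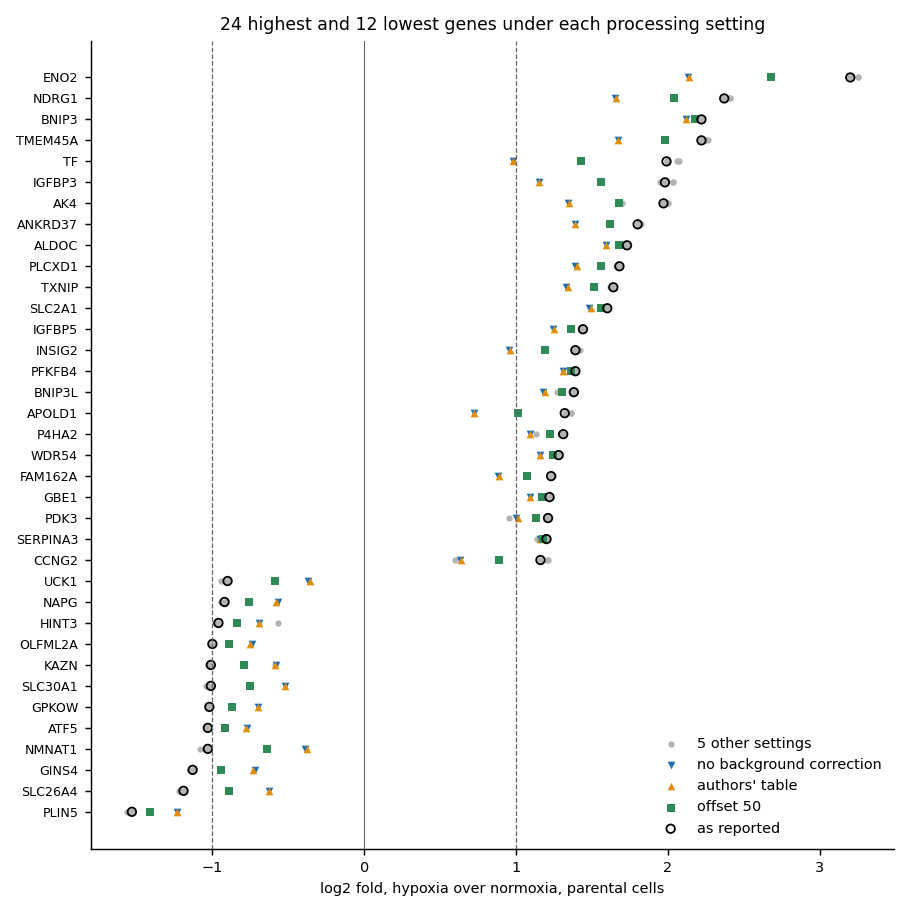
Log2 fold of hypoxia over normoxia in parental cells (horizontal axis) for the 24 highest and 12 lowest genes detected on both arrays, as reported (open circles) and under 8 alternative settings (other symbols), with dashed lines at 2-fold. Without background correction and in the authors' table the folds of dim genes such as ENO2, TF and APOLD1 lie closest to 0, while those of bright genes such as BNIP3, SLC2A1 and SERPINA3 hardly move.

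The same genes were read in the stem-like derivative, where hypoxia and normoxia were again 1 array each. Of the 40 genes higher in parental cells 39 were detected on at least 1 stem-like array; 33 of these had a log2 fold above 0 there, 15 were past 2-fold, 25 were past 1.5-fold, and the median was 0.80, against 0.00 over all genes. TMEM45A had a log2 fold of 1.86 against 2.22 in parental cells, IGFBP3 1.82 against 1.98 and GBE1 1.09 against 1.22. ENO2 had 1.61 against 3.20 and NDRG1 0.78 against 2.37. PLCXD1 and SERPINA3, 3.20-fold and 2.29-fold higher in parental cells, stood at log2 folds of -0.02 and -0.13. PROM1 was not detected on either stem-like array, so no fold is given for it. Of the 8 lower genes 7 were detected, 6 of them had a log2 fold below 0, 1 was past 1.5-fold, ATF5 at -0.60, and PLIN5 stood at 0.20. The genes were chosen for their parental values, so smaller values elsewhere are not a finding, and the differences between the cell states were not tested.

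**Figure D5:**
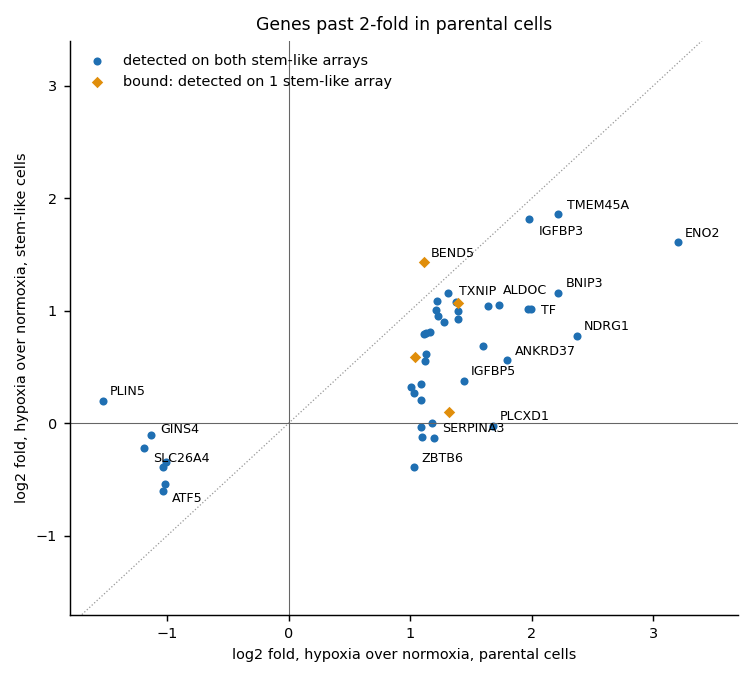
Log2 fold of hypoxia over normoxia in stem-like cells (vertical axis) against that in parental cells (horizontal axis) for genes past 2-fold in parental cells and detected in stem-like cells, with a dotted line of equal folds. Most points on the right lie above 0 and under the dotted line; 6 points lie on the other side of 0, among them PLCXD1, SERPINA3 and ZBTB6 on the right and PLIN5 on the left.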

How the data were processed

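Per the labels' protocols, total RNA was turned into biotin-labelled cRNA for Illumina arrays. Per the file headers, the deposited table of raw values holds an average bead intensity for every probe and array, with a detection p-value beside it. By its values no background had been subtracted. In the second deposited table, the authors' intensity values have equal quantiles on all arrays. How the authors normalized them, and with which scanner software, is not given in the sources used here.

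In the raw table probe names and values do not stand on the same lines: 47323 lines of values face 47315 identifiers, and 98.0% of the names belong to another line. The values were realigned to the authors' table along 1 ordered path, which was decided after the values were seen, and 8 lines were not used. Over 6691 pairs of probes of 1 gene, levels in parental normoxia had a Spearman rho of 0.022 as printed and 0.482 after realignment, a check across genes that does not use the authors' table. Probes were named from the platform's annotation, with 1 gene symbol for 30112 probes, several for 8 and none for 17195. Of those with 1 symbol, which alone were used for genes, 30073 matched the RefSeq gene table of GRCh38.p14. Y-linked genes and XIST, 144 probes, were left out.

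All 4 arrays were corrected and normalized together with neqc of limma 3.58.1 in R 4.3.3 (normexp on negative controls inferred from detection p-values, offset 16, quantile normalization), giving log2 levels computed here from the deposited intensity values; counts were made in Python 3.11.15. The probe with the highest mean level stands for a gene. An undetected value was raised to the array's lowest detected level, and such a fold is a bound. The offset shrinks folds of dim genes. Realignment was tested by removing identifiers from the aligned table and recovering their places, which takes that alignment as true. Normalization was tested on simulated arrays with known folds on brighter probes only. Folds of dim genes and bounds were not tested in this way. The alternatives were no background correction, median scaling, the parental arrays alone, the authors' table, a detection p-value under 0.05, no detection filter, the mean of detected probes and an offset of 50. Each was fixed in writing with results of these data already known.

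With 1 array a group the 2-fold and 1.5-fold rules are rules of size. Named genes are the 24 highest and 12 lowest folds, the 8 largest bounds each way, the members with the largest folds and the lowest member of each list with a member past 1.5-fold, and a panel; other genes past 2-fold, and further list members given beside them, were chosen after their values were seen. The 43 lists hold 976 entries, 921 with a probe used here. Members and lists were chosen with earlier results of these data known. Apart from the pairs named, probes were not searched for near-identical copies.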

Additional observations from a re-analysis of the deposited data

Results flagged for a closer look

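Among genes past 2-fold in parental cells, 6 had a log2 fold of the opposite sign in stem-like cells. PLIN5, 2.89-fold lower in parental hypoxia, stood at 0.20 in stem-like cells, and SERPINA3, 2.29-fold higher, at -0.13. KDM3A stood at -0.12 and PLCXD1 at -0.02, where parental cells had 1.10 and 1.68. ZBTB6 and SERPINA5, detected in hypoxia alone in parental cells, stood at -0.39 and -0.03. With 1 array a group these differences were not tested, and all but those of PLIN5 and ZBTB6 lie below 0 in stem-like cells by less than the SD between probes of 0.20; PLIN5 lies above 0 by that amount.

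Probes without a gene name were not used for any gene. Of 3055 such probes detected on both parental arrays, 10 were at least 2-fold higher in hypoxia and 0 lower. The highest was 2.87-fold higher, at signals of 785 and 2062, and the brightest was 2.46-fold higher, at signals of 2568 and 6136.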

How the results depend on the processing

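Counts of genes past a fold moved most with background correction. Without it, 19 genes were 2-fold higher, 1 was 2-fold lower, 56 were 1.5-fold higher and 8 were 1.5-fold lower. The authors' table gave 20, 1, 55 and 9, and it was not background-corrected either. An offset of 50 left 27 genes 2-fold higher and gave 1 gene 2-fold lower, 91 genes 1.5-fold higher and 25 genes 1.5-fold lower. With no detection filter 19950 genes were counted, of which 15 were 2-fold lower, 338 were 1.5-fold higher and 236 were 1.5-fold lower, and the median of the HIF target list outside glycolysis was 0.27, over more genes near background. The other 18 of 32 recounts stayed within 1.5 times. Of the list medians 340 stayed within the SD between probes and 4 moved by more, and of the folds of named genes 1301 stayed and 200 moved; no called fold changed sign. No paired analysis was possible because each group holds 1 array. Of the 8 lower genes 4 lie in the dim and 4 in the middle class by signal.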

Other observations

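Genes of ribosome biogenesis, which make and assemble ribosomal RNA in the nucleolus, lay slightly lower in parental hypoxia. The list was written after the values were seen, so its counts describe and support nothing. Of 129 entries 119 were detected, and 93 of these, or 78.2%, had a log2 fold below 0, against 50.2% of all genes. Their median was -0.14, a small value whose error was not measured. None was 2-fold lower, 7 were 1.5-fold lower and 0 were 1.5-fold higher. POP1, a subunit of ribonucleases P and MRP, read 449 and 319, a log2 fold of -0.70. PAK1IP1, a nucleolar protein, read 2432 and 1601, a log2 fold of -0.63, and CCDC86 read 832 and 583, a log2 fold of -0.62. The others past 1.5-fold were MYBBP1A at -0.69, PPAN at -0.66, NOB1 at -0.61 and NAF1 at -0.59. Without background correction 1 gene stayed past 1.5-fold lower, and the median was -0.11. The 34 detected cytosolic ribosomal protein genes had a median of -0.02, and the difference between the lists was not tested. In stem-like cells 82 of 120 detected members lay below 0, at a median of -0.07.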
